A study of Mus musculus with 24 samples.

Results

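Susd3, Cited1, Crym, Acan and Rhcg are 5 genes with high signal in the adrenal glands of intact male mice and lower signal after castration, and they were selected on those measured values. Members were all non-control probes on the array that carried 1 of these 5 gene names: 6 probes, 2 of them for Susd3, among 55681 distinct probes on the array. All 6 passed the filter on dim probes, which required a spot well above background on at least 3 of 24 arrays. With the brighter probe kept for each gene symbol, the 5 genes stood among 31187 features tested, of which 18317 had a gene symbol. Because the choice used the male arrays, every comparison with male arrays below is a description with no test, and only comparisons among female arrays were tested for these genes. Whether female values also played a part in the choice is not recorded, so the female tests may not be independent of it.

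Total RNA from adrenal glands was hybridised in a single colour (Cy3) to 24 Agilent mouse arrays, 3 for each of 8 groups of mice on the strain labelled C57BL/6. Males were WT or Kcnk3 null and were sham-operated or castrated. Females were WT or Kcnk3 null and were sham-treated or given testosterone. Kcnk3 encodes a background (leak) potassium channel that sets the resting membrane potential of adrenal cortical cells, and its loss in mice is known to disturb adrenal zonation and aldosterone control, mainly in females. The mice's ages, the dose and duration of testosterone, the time since castration and the construction of the null allele are not given in the sources used here. Nothing in the labels says whether the 3 arrays of a group came from separate animals or from pools, so the p-values measure the spread between these arrays.

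The mouse adrenal cortex differs between the sexes, and androgens are known to act on it, most visibly by making the inner X-zone regress in males. An androgen-responsive gene in this tissue is therefore one whose RNA is high in intact males, low in females and castrated males, and raised by testosterone in females. The 5 genes have unlike products. Susd3 encodes a membrane protein with a sushi domain, known as an oestrogen-responsive gene in breast cancer cells. Cited1 encodes a transcriptional co-activator that lacks a DNA-binding domain and recruits CBP and p300. Crym encodes mu-crystallin, which binds thyroid hormone in the cytosol. Acan encodes aggrecan, the large proteoglycan of cartilage. Rhcg encodes an ammonia channel best known from the kidney collecting duct.

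The sequences upstream of these genes are shown because the genes were chosen together for high signal in sham males and a fall with castration. RefSeq's promoter table (GRCm38.p6) held 6 promoters for 4 of the 5 genes, with none for Crym. Both strands of the 250 bases before each start were searched for the androgen response half-site AGAACA, for the full inverted repeat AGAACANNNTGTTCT that contains it, and for the site CAAGGTCA of SF-1 (Nr5a1), the main transcription factor of steroid-producing cells. The SF-1 letters were added after the promoter sequences had been seen and the match in Susd3 noticed, so that match is a description of how they were chosen. In the 3 sequences below, 5′ to 3′ on the strand of the gene, capitals mark the matched letters. The Susd3 promoter is at chr13:49248295-49248544, minus strand, the Cited1 promoter, 1 of 3 for that gene, at chrX:102250777-102251026, minus strand, and the Rhcg promoter at chr7:79617658-79617907, minus strand.
Susd3: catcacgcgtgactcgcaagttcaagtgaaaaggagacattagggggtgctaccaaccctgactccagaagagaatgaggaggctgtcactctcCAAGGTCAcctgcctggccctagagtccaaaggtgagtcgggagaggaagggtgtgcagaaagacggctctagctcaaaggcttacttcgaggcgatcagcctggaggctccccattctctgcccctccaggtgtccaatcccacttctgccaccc
Cited1: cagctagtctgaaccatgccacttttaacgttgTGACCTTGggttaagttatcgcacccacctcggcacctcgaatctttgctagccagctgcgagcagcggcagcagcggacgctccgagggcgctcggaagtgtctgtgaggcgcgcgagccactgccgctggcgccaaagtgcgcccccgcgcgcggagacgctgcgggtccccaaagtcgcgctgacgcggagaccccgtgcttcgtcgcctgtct
Rhcg: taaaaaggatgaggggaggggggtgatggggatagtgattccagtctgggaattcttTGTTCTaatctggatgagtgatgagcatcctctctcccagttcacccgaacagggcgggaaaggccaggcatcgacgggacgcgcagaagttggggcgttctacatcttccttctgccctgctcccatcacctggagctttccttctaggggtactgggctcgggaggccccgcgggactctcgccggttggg

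Susd3 held the SF-1 letters 156 bases before its start, and Cited1 held them on the opposite strand 217 bases before the start shown. The SF-1 letters were found in 1.33% of 32851 promoters of the same length. Rhcg held the androgen response half-site on the opposite strand 193 bases before its start, and 16.1% of all promoters held that half-site. The full repeat was in none of the 6 promoters and in 0.00913% of all promoters. The Acan promoter and the other 2 Cited1 promoters held none of the 3 motifs in these windows.

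On the array's own mm9 coordinates, the Susd3 probes lie at chr13:49326059-49326118 and chr13:49326202-49326261, the Cited1 probe at chrX:99442776-99442835, the Crym probe at chr7:127329970-127330029, the Acan probe at chr7:86259741-86259801 and the Rhcg probe at chr7:86738278-86738337. The 2 Susd3 probes, 143 bases apart, gave unlike brightness, and the last 30 bases of each are shown with the letters AATAAA of a polyadenylation signal in capitals where present.
Brighter Susd3 probe: cataaaaacataaagtggggttggaagtgc
Dimmer Susd3 probe: ctatgaaaatattAATAAAgtactttcagc

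Signals are given as log2 values relative to the array's own 75th percentile. Between 57.0% and 64.7% of non-control spots were well above background on each array, and no non-control spot was saturated. With 3 arrays a group, the number of arrays limits the precision. The 8 markers of adrenal cortex were high on all arrays (summed level 10.35 to 11.26 over the 24 arrays). Kcnk3 signal was 66.5% to 118% of the same-sex WT sham mean on arrays labelled WT and 5.63% to 69% on arrays labelled null, and the highest null values, 34.6% to 69%, were in the male null sham group. Whether the Kcnk3 probe lies in the deleted part is not known. RNA integrity numbers were 5 to 9 except for the third arrays of WT sham and WT testosterone females, which had 3 and shared the fourth slide.

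A set of 9 arrays carried at least 10% of a sex-linked signal of the opposite sex. On 2 of 3 WT sham female arrays and all 3 WT testosterone female arrays the Y-linked genes Ddx3y and Eif2s3y stood at 19.2% to 45.5% of the male WT sham mean, and on the first 2 arrays of each male null group Xist stood at 17.4% to 58% of the female null sham mean. Y-linked signal on the 6 null female arrays was at most 0.18%. Every treated array in the WT testosterone comparison was thus of this kind, and none in the null testosterone comparison was. The part of this signal in the results for the 5 genes was not tested beyond the values given beside them.

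**Figure D1:**
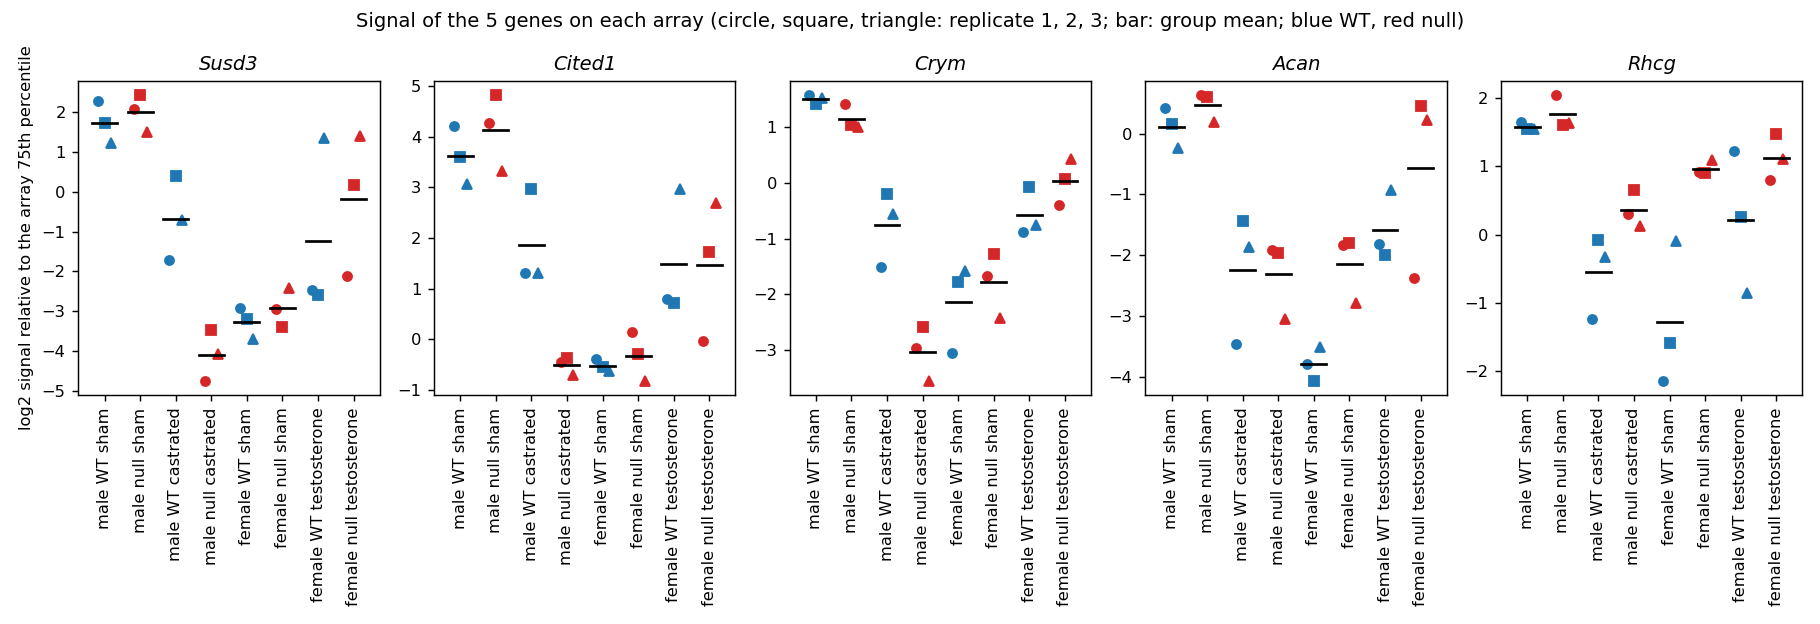
Signal of Susd3 (brighter probe), Cited1, Crym, Acan and Rhcg on each of 24 arrays, as log2 relative to the array's 75th percentile, for the 8 groups; symbols give the replicate number, bars the group mean, blue WT and red Kcnk3 null. Sham males are highest for all 5 genes by group mean, and the lowest group is null castrated males for Susd3 and Crym but WT sham females for Acan and Rhcg.

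Whole glands were measured, so fewer cells of a type and less RNA per cell cannot be told apart in any difference below. On the 3 male WT sham arrays the brighter Susd3 probe read 2.27, 1.72 and 1.22, and on the 3 male null sham arrays 2.08, 2.42 and 1.51. Castrated males read -1.72, 0.40 and -0.71 when WT and -4.74, -3.47 and -4.08 when null. Both castrated groups lay wholly below the sham males of their genotype, and the null castrated arrays lay wholly below the WT castrated arrays. WT sham females read -2.92, -3.20 and -3.69, and null sham females -2.94, -3.39 and -2.42. WT females given testosterone read -2.46, -2.59 and 1.34, and null females given testosterone -2.12, 0.17 and 1.40. The testosterone groups were split within themselves: arrays 1 and 2 of the WT group stayed at 5.23% and 4.77% of the male WT sham mean while array 3 reached 72.6%, and the null arrays stood at 6.62%, 32.3% and 75.8%.

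The dimmer Susd3 probe followed the brighter one, with a Pearson correlation of 0.955 over the 24 arrays, and was well above background on 11 of them. It was not well above background on any array of null castrated males, WT sham females or null sham females, so only approximate fold values can be given there. Each value sets the bright group's mean against the lowest signal among probes well above background on each array of the dim group, or the dim probe's own where that was higher. By this probe, Susd3 read about 26.9-fold higher in WT sham males than in WT sham females. It read about 31.1-fold higher in null sham males than in null castrated males. These are not strict lower bounds, because a reading of -6.35 in WT sham females was still not well above background. In females given testosterone the probe was measured on 2 of 3 null arrays and 1 of 3 WT arrays.

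Cited1 read 4.21, 3.61 and 3.07 in WT sham males and 4.27, 4.82 and 3.32 in null sham males. After castration it read 1.30, 2.97 and 1.30 in WT males and -0.46, -0.38 and -0.71 in null males. WT sham females, at -0.40, -0.55 and -0.62, and null sham females, at 0.14, -0.29 and -0.82, overlapped the null castrated males. WT females given testosterone read 0.80, 0.71 and 2.96, all above WT sham, and null females given testosterone read -0.04, 1.72 and 2.69. The arrays that were high for Susd3 under testosterone were also the high ones for Cited1.

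Crym read 1.58, 1.43 and 1.54 in WT sham males. Null sham males read 1.42, 1.04 and 1.00, just below the WT arrays. Castrated males read -1.52, -0.20 and -0.56 when WT and -2.98, -2.59 and -3.56 when null. These groups did not overlap. WT sham females read -3.07, -1.78 and -1.58, and WT females given testosterone -0.88, -0.08 and -0.76. Null sham females read -1.67, -1.27 and -2.43, and null females given testosterone -0.39, 0.07 and 0.44. In both genotypes every array from testosterone-treated females exceeded every sham array.

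Acan, whose core protein is known mainly from cartilage, read 0.42, 0.16 and -0.23 in WT sham males and 0.63, 0.61 and 0.19 in null sham males. Castrated males read -3.45, -1.43 and -1.86 when WT and -1.92, -1.96 and -3.04 when null, and these 2 groups overlapped. WT sham females were lowest of all groups, at -3.79, -4.06 and -3.50. They did not overlap null sham females, at -1.83, -1.80 and -2.79. WT females given testosterone read -1.81, -1.99 and -0.93, and null females given testosterone -2.37, 0.46 and 0.23, so that 2 of the 3 null arrays reached the range of sham males. Of 8 cartilage markers 4 were measured: Chad was well above background on 22 arrays, Col11a2 on 19, and Col9a1 and Comp on 9 each. Their summed level lay between -3.59 and -1.85 on all arrays, and was -2.99 to -2.38 in WT sham males and -3.48 to -2.99 in WT castrated males; their part in the Acan values was not tested.

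Rhcg read 1.65, 1.54 and 1.54 in WT sham males and 2.04, 1.61 and 1.64 in null sham males. Castrated males read -1.24, -0.08 and -0.33 when WT and 0.30, 0.66 and 0.13 when null, so the null castrated arrays lay above the WT castrated arrays. WT sham females read -2.14, -1.59 and -0.10, and null sham females 0.91, 0.90 and 1.09. WT females given testosterone read 1.23, 0.25 and -0.85, and null females given testosterone 0.80, 1.47 and 1.11. Null sham females thus stood at 65.7% of the male WT sham mean, against 16.7% for WT sham females. Of the 6 kidney markers measured, Kap was well above background on 3 arrays and Aqp2, the water channel of the collecting duct, on all 24 at -3.93 to -1.16. The summed kidney marker level lay between -2.12 and 0.73, and its part in the Rhcg values was not tested.

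The order of the group means was led by sham males for each gene. For Susd3 every group overlapped its neighbour in the order null sham males, WT sham males, null testosterone females, WT castrated males, WT testosterone females, null sham females, WT sham females and null castrated males. For Cited1, WT sham males did not overlap the next group, WT castrated males, and the other neighbours overlapped. For Crym the top 3 groups, WT sham males, null sham males and null testosterone females, were separate from one another. For Acan only null castrated males and the last group, WT sham females, were separate neighbours. For Rhcg, WT sham males were separate from null testosterone females, and null sham females from null castrated males.

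In males, castration differences are given without a test, since they chose the genes. In WT males the difference between castrated and sham means was -2.41 for Susd3, -2.36 for Acan, -2.28 for Crym, -2.13 for Rhcg and -1.77 for Cited1 on the log2 scale. In null males it was -6.10 for Susd3, -4.65 for Cited1, -4.20 for Crym, -2.78 for Acan and -1.40 for Rhcg. Castrated arrays lay wholly below sham arrays for 5 of 5 genes in both genotypes, against 8.05% of all features in WT and 11.2% in null, counts from which nothing is read because castration was in the rule. Red blood cell markers moved with castration in WT males: the summed level of the 3 measured of 6 was 7.34 to 8.89 in sham and 5.78 to 6.54 in castrated males, and adipocyte markers stood at 9.09 to 9.56 and 8.84 to 9.09. In null males the red blood cell markers overlapped, at 6.33 to 7.84 in sham and 7.36 to 7.96 in castrated males. The part of these markers in the castration differences was not tested.

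Castrated null males differed from castrated WT males by -3.42 for Susd3, -2.37 for Cited1 and -2.28 for Crym, with no overlap, by -0.06 for Acan, and by 0.92 for Rhcg, again with no overlap. Groups of this comparison did not overlap for 8.23% of all features in the lower and 8.46% in the higher direction. The first 2 null castrated arrays carried Xist signal, at 17.4% and 58% of the female null sham mean. The third stood at 4.15%, which was lower but still above the WT male arrays, at 0.56% to 1.11%. It read -4.08 for Susd3, -0.71 for Cited1 and -3.56 for Crym, within or below the range of the other 2 arrays. Red blood cell markers separated these groups too, at 7.36 to 7.96 in null castrated and 5.78 to 6.54 in WT castrated males, as did endothelial markers, at 5.4 to 5.5 and 5.29 to 5.35. Their part in these differences was not tested.

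Between the sexes, sham females lay wholly below sham males for 5 of 5 genes in both genotypes, against 8.35% of all features in WT and 9.78% in null. The difference of sham females from sham males was -5.0 for Susd3, -4.15 for Cited1, -3.90 for Acan, -3.66 for Crym and -2.85 for Rhcg in WT. In null animals it was -4.92, -4.46, -2.62, -2.95 and -0.79 for the same genes in that order. Rhcg thus had the narrowest distance between the sexes in null animals. In WT sham animals red blood cell markers were at 6.44 to 6.99 in females and 7.34 to 8.89 in males, and macrophage markers at 4.52 to 5.37 and 4.29 to 4.39, and their part was not tested.

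Testosterone and castration were set against that distance between sham males and sham females of the same genotype. In WT animals testosterone covered 40.6% of it for Susd3, 48.6% for Cited1, 42.9% for Crym, 56.6% for Acan and 52.1% for Rhcg. The WT testosterone shares of 3 genes rest in part on slide 4, without whose 2 arrays the difference with testosterone was 0.53 in place of 2.03 for Susd3, 1.23 in place of 2.02 for Cited1 and 2.61 in place of 1.49 for Rhcg. Castration of WT males covered 48.3%, 42.7%, 62.2%, 60.6% and 74.6% for the same genes in that order. In null animals testosterone covered 55.6% for Susd3, 40.0% for Cited1, 62.1% for Crym, 60.4% for Acan and 19.7% for Rhcg, and castration covered 124%, 104%, 142%, 106% and 177%. By group mean, castrated null males therefore lay below null sham females for all 5 genes. They lay wholly below for 3 of the genes (Susd3, Crym and Rhcg), against 5.42% of all features. By group mean, castrated WT males stayed between the sexes. The null Rhcg shares of 19.7% and 177% are imprecise, because they divide by a distance of only 0.79 ± 0.46 (SE). The difference of null sham females from null sham males for Rhcg had a 95% confidence interval of -1.77 to 0.18.

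**Figure D2:**
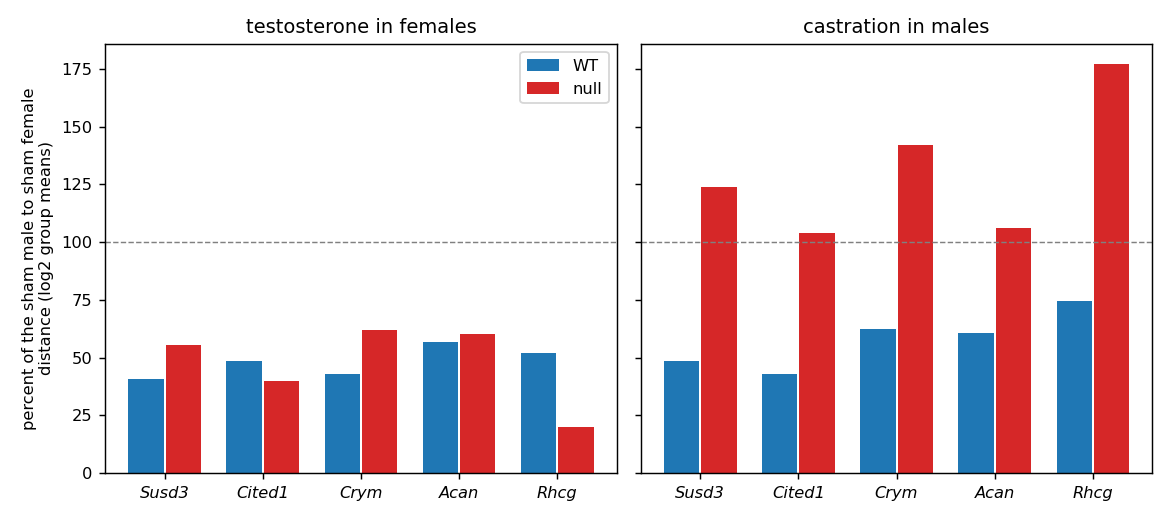
Percent of the log2 distance between sham males and sham females of the same genotype that testosterone (left, females) and castration (right, males) covered, from group means of 3 arrays, with no error bars; the dashed line is the full distance. Testosterone bars lie between 19.7% and 62.1%. Castration bars pass 100% for all 5 genes in null animals, with Cited1 and Acan only at 104% and 106%, and for none in WT. The null Rhcg bars divide by a distance of only 0.79. The WT testosterone bar of Susd3 rests mostly on 1 array pair, on slide 4.

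The tests on female arrays were taken from a limma fit of the 8 group means over all 31187 features, with Benjamini-Hochberg adjustment over all of them. With testosterone, WT females had higher means for 5 of 5 genes, against 46% of all features, and 0 of the 5 passed an adjusted p of 0.05, against 0.0737% of all features called. For 4 of the 5 genes the testosterone arrays lay wholly above the sham arrays, against 3.41% of all features in that direction. All 5 had an unadjusted p under 0.05, against 2.82% of all features in the higher direction. The median difference of the 5 genes was 2.02, beside -0.026 for all features. The difference in WT females was 2.21 ± 0.60 (SE) for Acan (limma adjusted p = 0.253) and 1.57 ± 0.40 for Crym (limma adjusted p = 0.201). It was 2.02 ± 0.65 for Cited1 (limma adjusted p = 0.408), 2.03 ± 0.88 for Susd3 (limma adjusted p = 0.738) and 1.49 ± 0.46 for Rhcg (limma adjusted p = 0.370), the gene whose groups overlapped.

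Within the slides that held both arrays, the testosterone difference in WT females had the same sign in 3 of 3 slides for 4 genes. It was 1.98, 2.07 and 2.57 for Acan on slides 1, 2 and 4, and 2.19, 1.70 and 0.82 for Crym. For Susd3 it was 0.46, 0.61 and 5.03, so most of its mean came from slide 4. For Rhcg it was 3.37, 1.84 and -0.76, so slide 4 ran the other way. The arrays of slide 4 had the low RNA integrity number, and its sham array had the highest Y-linked signal of the female arrays, 45.5%; the part of either in these values was not tested. Without the 2 arrays of slide 4, Rhcg passed the test, at 2.61 (limma adjusted p = 0.0166), and in the authors' deposited values Crym did (limma adjusted p = 0.0462).

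In null females, whose arrays carried no Y-linked signal, the means with testosterone were again higher for 5 of 5 genes, against 44.6% of all features, and 0 of the 5 passed, against 0.208% of all features. An unadjusted p under 0.05 was reached by 4 of the 5, against 2.36% of all features in the higher direction. The difference was 1.83 ± 0.40 for Crym (limma adjusted p = 0.083), 2.74 ± 0.88 for Susd3 (limma adjusted p = 0.429) and 1.78 ± 0.65 for Cited1 (limma adjusted p = 0.563). It was 1.58 ± 0.60 for Acan (limma adjusted p = 0.610) and 0.16 ± 0.46 for Rhcg, with a 95% confidence interval of -0.82 to 1.13. The testosterone arrays lay wholly above sham for 2 of the 5, Susd3 and Crym, against 2.69% of all features. The median difference of the 5 genes was 1.78, beside -0.033 for all features. With slide as a block Crym passed, at 1.83 ± 0.37 (limma adjusted p = 0.0431), and likewise with the replicate number as a block (limma adjusted p = 0.0419). Over all 18 alternatives Crym passed under 4 (limma adjusted p from 0.0238 to 0.325).

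The first null testosterone array was the lowest of its group for 5 of 5 genes, by -1.94 for Susd3, -1.81 for Acan, -1.50 for Cited1, -0.43 for Crym and -0.33 for Rhcg from its group mean. This array also carried liver transcripts: albumin read 8.29, where all arrays but 1 other were at 1.25 or below, and the summed level of the liver markers was 10.22. The other array with albumin, at 7.38, was the third WT sham male. Without the first null testosterone array the difference in null females was 2.49 for Acan, which then passed (limma adjusted p = 0.0476). The part of liver tissue in the low values of this array was not tested.

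With both genotypes averaged in a contrast added after the data were seen, Crym was the only 1 of the 5 to pass, against 0.439% of all features. Crym rose by 1.70 ± 0.29, a 3.25-fold higher signal with testosterone (limma adjusted p = 0.0125), in 6 of 6 treated arrays above every sham array of their genotype. It passed in 23 of 23 alternatives, with differences from 1.47 to 1.89. The average was 1.89 ± 0.43 for Acan (limma adjusted p = 0.0586), 1.90 ± 0.46 for Cited1 (limma adjusted p = 0.0832), 2.38 ± 0.62 for Susd3 (limma adjusted p = 0.128) and 0.82 ± 0.33 for Rhcg (limma adjusted p = 0.455). With slide as a block 2 of the 5 passed, Crym and Acan (limma adjusted p = 0.00622 and 0.0411), as they did with the replicate number as a block. Without the first null testosterone array 4 of the 5 passed, all but Rhcg.

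**Figure D3:**
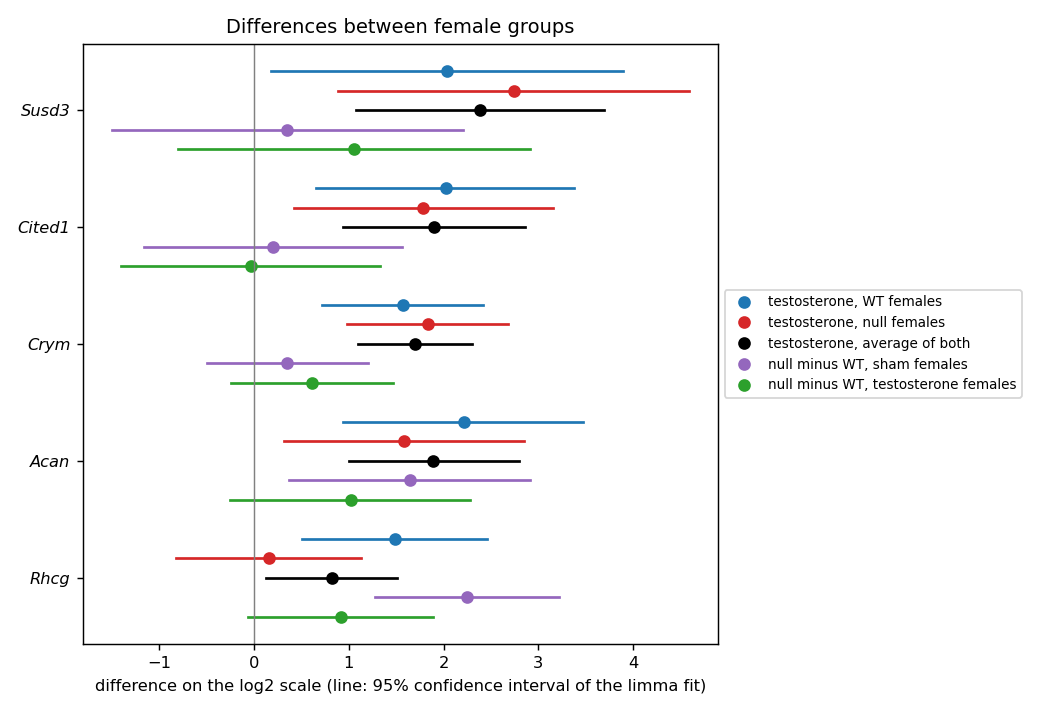
Differences on the log2 scale for 5 genes between female groups; points are limma estimates from 3 arrays a group and lines their 95% confidence intervals. All testosterone estimates lie above 0, Rhcg in null females at 0.16 with an interval across 0, and the Rhcg difference between sham null and sham WT females stands at 2.25.

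Whether the testosterone effect differed between genotypes was tested as an interaction: 0 of 5 genes passed, against 0.0962% of all features, and 0 of 5 had an unadjusted p under 0.05, against 3.50%. The nearest was Rhcg, whose effect in null females was lower by -1.33 ± 0.66 (95% confidence interval -2.71 to 0.05; limma adjusted p = 1), and without the arrays of slide 4 by -2.45 ± 0.46 (limma adjusted p = 0.0718). The intervals for the other 4 were wide, from -1.92 to 3.33 for Susd3, for example, so effects that differ by several-fold are within them.

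Loss of Kcnk3 in sham females was tested as the difference of null from WT. Rhcg was the only 1 of the 5 called, against 0.475% of all features. Its signal was 4.74-fold higher in null sham females (difference 2.25 ± 0.46, limma adjusted p = 0.0347), and 3 of 3 null arrays lay above every WT array. The median of the 5 differences was 0.35, beside -0.025 for all features. Acan was higher by 1.64 ± 0.60 with no overlap of the groups (6.32% of all features were separate in that direction), and missed the threshold (limma adjusted p = 0.319). The differences of Susd3, Cited1 and Crym were 0.35 ± 0.88, 0.20 ± 0.65 and 0.35 ± 0.40.

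The Rhcg call held under 11 of 18 alternatives, with limma adjusted p from 0.000841 to 0.137 over all 18. The WT sham array at -0.10 was on slide 4 and had an RNA integrity number of 3, and without the arrays of slide 4 the difference was 2.83 ± 0.33 (limma adjusted p = 0.000841). Within slides 1 and 2 the difference was 3.06 and 2.49. Without the 9 arrays of opposite sex-linked signal, it was 3.11, a value from 1 WT sham female array; its fitted p (limma adjusted p = 0.0319) assumes that this lone array varies like the other groups and holds no spread of its own group. It was lost with slide as a block (limma adjusted p = 0.0697), without the filter on dim probes (limma adjusted p = 0.0561), and when WT sham array 1 or 2, or any of the 3 null sham arrays, was left out (limma adjusted p from 0.0833 to 0.137). Adipocyte markers lay mostly lower in null sham females, with overlap: their summed level was 7.72 to 9.26 there and 9.23 to 9.93 in WT sham females. Of the 6 markers 0 were called in this comparison, and their part in the result was not tested.

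Among testosterone-treated females 0 of the 5 genes differed between null and WT, against 0.0353% of all features called, and 0 of the 5 had an unadjusted p under 0.05, against 7.99%. The difference was 0.92 ± 0.46 for Rhcg (95% confidence interval -0.06 to 1.89), 1.02 ± 0.60 for Acan and 1.05 ± 0.88 for Susd3. All 3 WT testosterone arrays carried Y-linked signal, and adipocyte markers were at 8.85 to 8.97 in null and 9.38 to 10.22 in WT females given testosterone; the part of either was not tested.

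**Figure D4:**
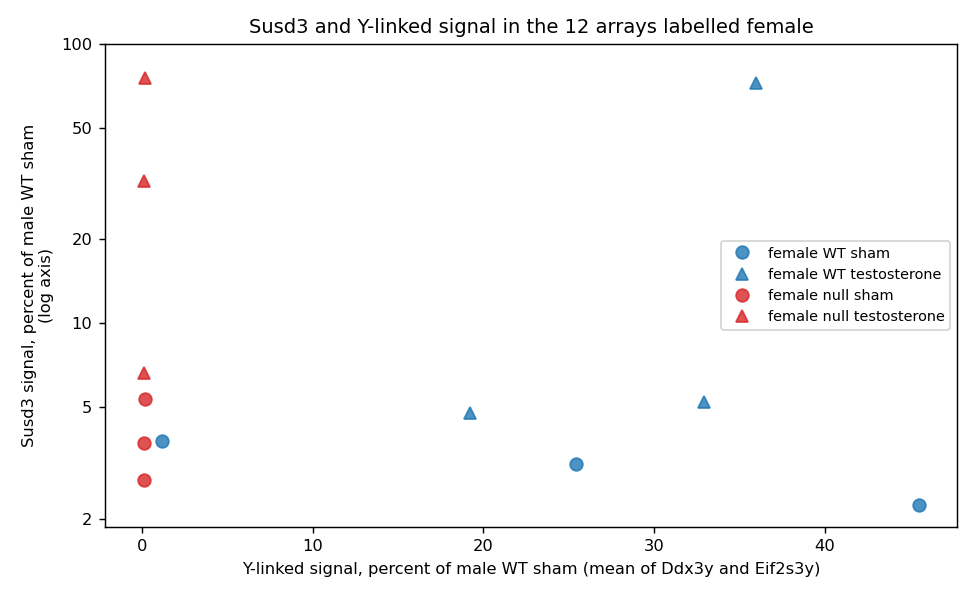
Susd3 signal (brighter probe, percent of the male WT sham mean, log axis) against Y-linked signal (percent of the male WT sham mean) for the 12 arrays labelled female; circles are sham, triangles testosterone, blue WT and red null. The WT sham array with the most Y-linked signal, 45.5%, had 2.23% of male Susd3, while the 2 null testosterone arrays at 32.3% and 75.8% had at most 0.18% Y-linked signal.

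The plot of Susd3 against Y-linked signal sets these values side by side. The third WT testosterone array had 36% Y-linked signal and 72.6% of the male Susd3 level, and the third WT sham array, with 45.5%, had 2.23%. On the null female arrays Y-linked signal was at most 0.18% while Susd3 ran from 2.74% to 75.8%.

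The genes did not follow a single course across arrays. Susd3 and Cited1 had a Pearson correlation of 0.96 over the 24 arrays, which share slides and groups, and 0.88 for deviations from group means. Acan followed them, with deviations correlated at 0.67 with Susd3 and 0.77 with Cited1. Crym deviations correlated at only 0.14 with Susd3 and 0.3 with Cited1, and at 0.57 with Acan. Rhcg deviations correlated at -0.23 with Susd3, -0.13 with Cited1, 0.26 with Acan and 0.51 with Crym. By the same measure over the 24 arrays, the named features nearest to Susd3 were Cited1, Hhex, Eppin, Camkk1 and Cxcr4 (0.964 down to 0.897), and those nearest to Cited1 were Susd3, Hhex, St6galnac2, Camkk1 and Flrt1. Crym was nearest to Kcnk1, St6galnac2, Myo1a and Kcnj4 (0.956 down to 0.918). Acan was nearest to Gata1, Camkk1, Slc7a4, Kcnj4 and Kcnk1 (0.95 down to 0.911). Rhcg had looser neighbours, Efna1, Reep2, Bcl11b, Cdc42ep5 and Cmtm3 (0.846 down to 0.804). Over the 12 female arrays the nearest features were Cited1 for Susd3 (0.934), Pitpnm3 for Crym (0.944), Phldb1 for Acan (0.954) and Slc44a2 for Rhcg (0.908).

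Acan and Rhcg lie 479 kb apart on chromosome 7. Of the measured genes with a probe between them, Hapln3, Mfge8, Abhd2, Fanci and Polg, none passed in the 7 comparisons examined (testosterone in both genotypes, null against WT in sham females, castration in both genotypes, and sex in both). Hapln3, which encodes a link protein that binds aggrecan to hyaluronan and whose probe lies 2 kb from that of Acan, differed by -0.06 with testosterone in WT females and -0.20 with castration in WT males.

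Other genes of the pathways of the 5 were taken from lists. Of 28 measured of 30 genes known as androgen-responsive in other tissues, Eppin, a gene of the epididymis and testis, fell by 3.29 ± 0.64 with castration of null males (limma adjusted p = 0.0126), the only 1 of the 28 to pass there, where 1% of all features were called. None of the 28 passed with testosterone in null females. Of 12 measured genes of thyroid hormone handling other than Crym, 0 passed with testosterone in WT females and 0 in null females. In the average contrast 1 of the 12 passed, Thrb, a thyroid hormone receptor, which fell by 0.90 ± 0.19 (limma adjusted p = 0.0469).

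Of 20 measured of 22 genes of the aggrecan matrix other than Acan, Adamts15, an aggrecan-cleaving protease, was higher in null sham females by 1.26 ± 0.27 (limma adjusted p = 0.0472) and in castrated null against castrated WT males by 2.04 (limma adjusted p = 0.000713), where 0.693% of all features were called. No other gene of that list passed in those comparisons, and none passed with testosterone in either genotype of females. Of 8 measured of 13 genes of ammonium and acid-base transport other than Rhcg, Slc4a4, a sodium bicarbonate cotransporter, was higher by 1.92 in castrated null than castrated WT males (limma adjusted p = 0.00904), and none passed in the sham female comparison in which Rhcg did. Of the CITED family and its partners, 8 of 9 measured, Cited2 rose with castration in null males by 1.27 ± 0.25 (limma adjusted p = 0.0143). None of the 5 other sushi-domain genes passed in any comparison.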

How the data were processed

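The files are the scanner output of 24 single-colour arrays and a table of deposited values. Per the file headers, spot intensity was extracted by Agilent Feature Extraction, which subtracted background on each array; the probe positions are mm9. The deposited log2 value table had column medians of 6.326 to 6.342 and matched quantile-normalized log2 mean signal; its exact processing is not given in the sources used here. RNA labelling used the Agilent low-input amplification protocol, per the labels.

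From the deposited intensities, log2 processed signal minus the array's 75th percentile was taken, outlier spots were left out, and spots of a probe were averaged. Probes well above background on at least 3 of 24 arrays were kept, with the brightest kept for each symbol. A limma (3.58.1, R 4.3.3) fit with 1 mean for each of the 8 groups (16 residual degrees of freedom) gave adjusted p-values (Benjamini-Hochberg over 31187 features); a feature was called under 0.05. The pipeline was tested on simulated data. Gene names came from RefSeq accessions for 26413 probes and symbols for 4594; 24674 probes had none.

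The 5 genes, the lists and the marker sets were chosen with earlier results of these data known. Named genes were the 5 genes with all their probes, up to 4 genes of each list and comparison (called ones, then by p), and the 5 named features most correlated with each gene; some results under this rule are not reported here. Alternatives covered normalization, filters, slide, RNA integrity and left-out arrays; 0 columns of other samples were met.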

Additional observations from a re-analysis of the deposited data

How the results depend on the processing

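Counts of the 5 genes called changed as follows; the cause was not tested. Testosterone in null females gave 1 call (Crym) in place of 0 with normexp and quantile normalization, in the deposited value table, with slide as a block and with the replicate block. Testosterone in WT females gave 1 in place of 0 in the deposited table and without slide 4. Null against WT in sham females gave 0 in place of 1 without the filter and with slide as a block. The average gave 2 in place of 1 under quantile normalization, in the deposited table, under the filter on all arrays, with slide or replicate block and without slide 4, and 4 without the 2 liver-transcript arrays. Leaving out single arrays gave 0 to 1 for sham females and null testosterone, 1 to 4 for the average, and 0 for the others.

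The Cited1 difference between genotypes under testosterone turned from -0.03 to 0.02 with normexp, 0.43 with slide as a block, 0.70 without slide 4 and 0.72 without the liver-transcript arrays, with -0.65 to 0.72 over single left-out arrays. The interaction turned for Cited1 (0.55 without slide 4, 0.52 without the liver arrays; -0.85 to 0.52 over left-out arrays), Crym (-0.12 without slide 4; -0.06 to 0.72), Acan (0.28 without the liver arrays; -1.13 to 0.28) and Susd3 (-0.09 to 1.99 over left-out arrays). Over left-out arrays the sham female difference ran from -0.03 to 0.45 for Cited1 and -0.11 to 0.67 for Crym, and the null testosterone difference from -0.01 to 0.32 for Rhcg. None of these passed.

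Over all features, calls ran from 7 to 151 for testosterone in WT females (main 23), 33 to 147 in null females (main 65), 63 to 293 for sham females (main 148), 4 to 47 for testosterone females (main 11) 72 to 387 for the average (main 137) and 21 to 46 for the interaction (main 30). With single arrays left out they ran from 4 to 46, 19 to 69, 66 to 131, 4 to 10, 44 to 198 and 19 to 50 in the same order. The replicate number is also the slide except for the 2 arrays of slide 4. Deviations from group means correlated at 0.226 on average between arrays of the same number (-0.354 to 0.686) and at -0.109 between other arrays, so not every pair moved together; the replicate block changed no other call of the 5 genes. Without the 9 arrays of opposite sex-linked signal no WT testosterone array remains, so those comparisons could not be fitted.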
